A study of Mus musculus with 12 samples.

Results

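Genes that handle cysteine, make glutathione and reduce peroxides through thiols were followed in pulmonary CD11c+ cells of mice infected with Pneumocystis, a fungus of the lung. The list held 10 genes, chosen by symbol, and 9 of them were measured among 18193 genes with a symbol of their own: Cdo1, Slc7a11, Gclc, Gclm, Prdx2, Nqo1, Srxn1, Txnrd1 and Nfe2l2, with 19 probe sets in all. Prdx1 has no value here, because each of its 5 probe sets also carries the symbol Gm21399. The list was drawn up with the ratios of these 12 arrays known, so the differences of its members are a description and carry no p value.

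IFNAR-/- mice, without a working type I interferon receptor, and wildtype mice all received Pneumocystis into the trachea. Lungs were taken at day 14 or day 7 after infection, which gave 4 groups of 3 mice, with 1 Affymetrix array per mouse: IFNAR-/- day 14, wildtype day 14, IFNAR-/- day 7 and wildtype day 7. The study's design text asks if these cells start type I interferon signalling and if that matters for inflammation when clearance begins. No uninfected group was analysed here, and neither strain nor age is given in the sources used here. CD11c marks dendritic cells and lung macrophages, and per the labels some lymphocytes and unidentified cells remained among the bead-selected cells. Each value is a log2 ratio to about the gene's own median over the 12 arrays. They compare arrays and not genes, and whether a marker is absent cannot be read from them. A difference is said to pass the threshold where its limma p, adjusted over all genes by Benjamini-Hochberg, was under 0.05. For the members, passing only describes where their values fall in that fit, under the main or another setting. It is not a test of them, as their values were known when the list was made.

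Cells take up cystine through the exchanger whose transport subunit is Slc7a11, and reduce it to cysteine. Glutamate-cysteine ligase, made of the catalytic subunit Gclc and the modifier subunit Gclm, uses cysteine for the first step of glutathione synthesis, while Cdo1, cysteine dioxygenase, oxidises cysteine on the way to taurine. Peroxiredoxins reduce hydrogen peroxide with electrons from thioredoxin, which the reductase Txnrd1 keeps reduced, and sulfiredoxin, Srxn1, restores overoxidised peroxiredoxins. Nfe2l2 encodes NRF2, a transcription factor that is stabilised by electrophiles and oxidants and acts at antioxidant response elements of genes such as Gclm, Srxn1, Txnrd1 and Nqo1, a quinone reductase.

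Promoter sequence is shown for Prdx2, which was lower in IFNAR-/- cells on both days, and for Srxn1 and Txnrd1, partners of the peroxiredoxins whose group mean was highest in IFNAR-/- day 14 arrays. The windows run 5' to 3' from 250 bases before to 50 after the annotated start, from RefSeq on build GRCm38.p6. Capitals mark the letters TGACNNNGC, a core of the antioxidant response element, on either strand. Prdx2 lies at chr8:84969372-84969671 on the + strand, Srxn1 at chr2:152105274-152105573 on the + strand, and the window shown for Txnrd1, the second of its 3, at chr10:82858956-82859255 on the + strand.
Prdx2: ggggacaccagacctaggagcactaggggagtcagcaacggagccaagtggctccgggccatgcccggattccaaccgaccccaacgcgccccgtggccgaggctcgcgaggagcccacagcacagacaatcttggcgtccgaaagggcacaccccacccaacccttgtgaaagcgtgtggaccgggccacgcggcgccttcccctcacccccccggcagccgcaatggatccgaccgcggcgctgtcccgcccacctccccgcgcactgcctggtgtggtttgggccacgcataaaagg
Srxn1: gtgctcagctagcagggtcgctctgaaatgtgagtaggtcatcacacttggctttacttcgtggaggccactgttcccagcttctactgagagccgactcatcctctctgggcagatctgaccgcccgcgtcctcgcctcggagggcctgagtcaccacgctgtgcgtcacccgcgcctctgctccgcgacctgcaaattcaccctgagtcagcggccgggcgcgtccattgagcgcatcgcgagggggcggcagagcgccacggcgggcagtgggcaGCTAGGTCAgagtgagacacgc
Txnrd1: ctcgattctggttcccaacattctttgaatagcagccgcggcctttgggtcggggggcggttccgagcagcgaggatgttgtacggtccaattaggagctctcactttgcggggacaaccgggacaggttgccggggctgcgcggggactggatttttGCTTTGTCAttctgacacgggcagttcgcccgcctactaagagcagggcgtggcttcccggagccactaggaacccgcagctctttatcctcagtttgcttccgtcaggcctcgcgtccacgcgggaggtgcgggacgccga

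The element begins at position 29 after the start in Srxn1 and at -92 in this Txnrd1 window, and these letters are not in the Prdx2 window. Of the listed genes 8 had a window of sequence, Prdx1 among them, and 5 of these held the element, namely Gclm, Prdx1, Srxn1, Txnrd1 and Nfe2l2. Counted by window, 5 of their 10 windows held the element. Txnrd1 had 3 windows, and its windows 1 and 3, which are not shown, held no match. Over all 32851 windows of 300 bases, 12.4% held the element. The Prdx1 match overlaps an AP-1 site, TGACTCA on either strand, which 5.2% of all windows held. Srxn1 has 2 AP-1 sites, which do not overlap its match. Only the letters TGACNNNGC were searched, so other spellings of the element, in Srxn1 or elsewhere, were not counted. The windows of Slc7a11 and Nqo1 held neither motif.

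Some arrays stood apart. IFNAR-/- day 7 mouse 3 was high in markers of endothelium (median log2 ratio 2.599), lung epithelium (2.106), neutrophils (1.953) and fibroblasts (1.909), IFNAR-/- day 14 mouse 2 had the widest spread of values, and wildtype day 7 mouse 1 was high in lung epithelial (2.084) and endothelial (1.735) markers. The mean log2 value of 5' control probe sets less that of 3' ones is called the 5' over 3' signal and is a sign of RNA integrity. It compares arrays, since each probe set is a ratio to about its own median, and does not say if 5' exceeds 3' signal. At day 14 it was 0.124, 0.064 and 0.163 in IFNAR-/- arrays, against -0.239, -0.184 and -0.912 in wildtype arrays, without overlap. It lay between 0.08 and 0.18 in wildtype day 7 arrays and between -0.52 and 0.11 in IFNAR-/- day 7 arrays. The signal of the poly-A control transcripts, added to the RNA before labelling, lay between -3.34 and -1.82 in wildtype day 14 arrays. It lay between 0.79 and 2.09 in wildtype day 7, -1.61 and 0.17 in IFNAR-/- day 14 and -3.38 and 1.37 in IFNAR-/- day 7 arrays.

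**Figure D1:**
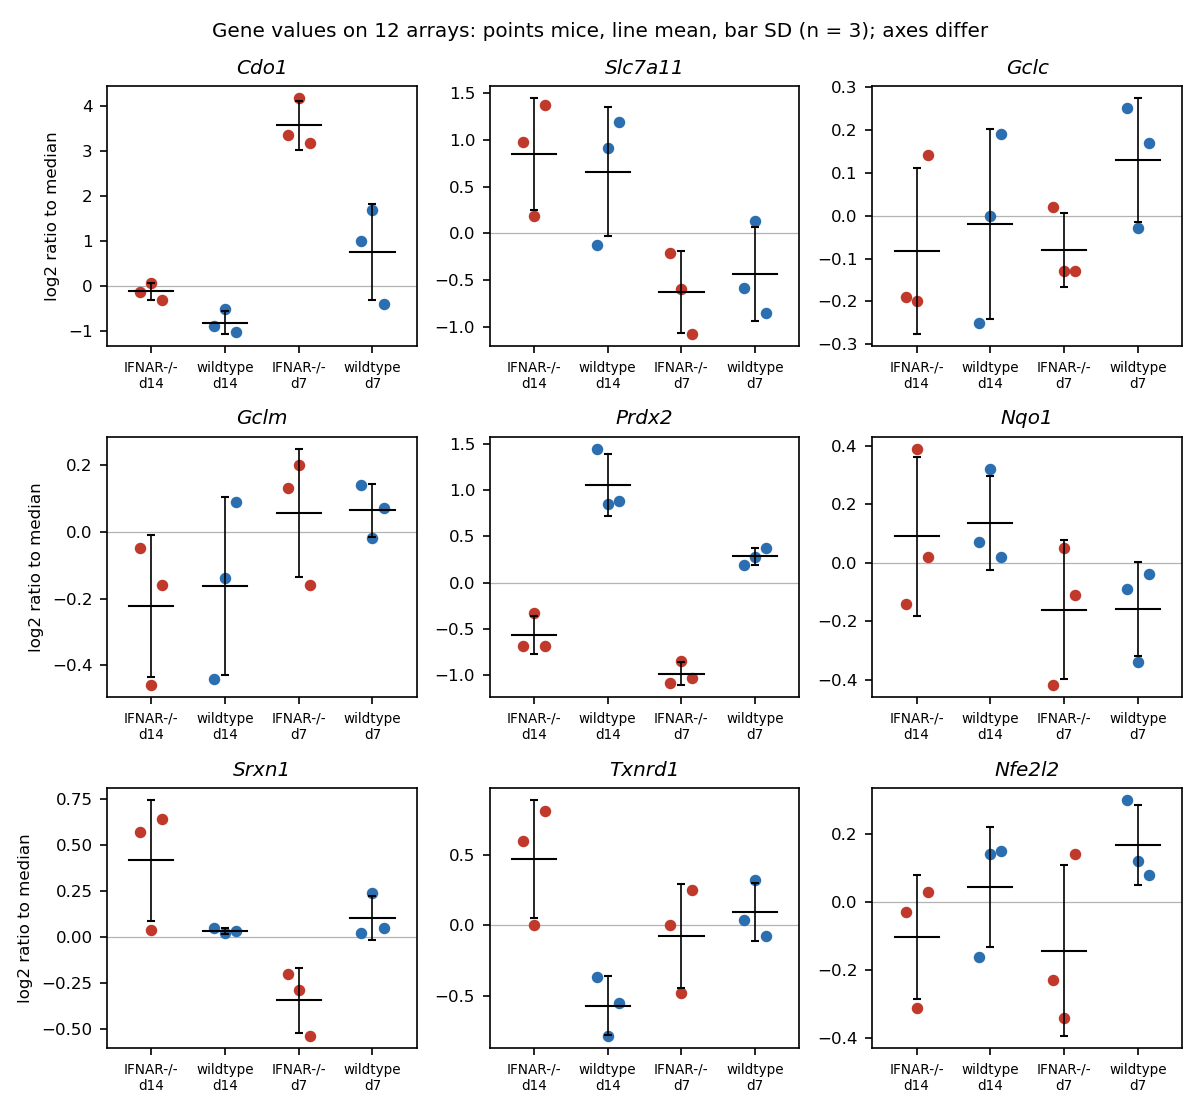
Log2 ratio to the median of the 12 arrays for each of the 9 genes, with a panel per gene and its own axis; points are mice, lines are group means and bars are SD (n = 3). Prdx2 separates the genotypes on both days, with IFNAR-/- arrays between -1.09 and -0.33 and wildtype arrays between 0.19 and 1.45, while Gclc, Gclm, Nqo1 and Nfe2l2 overlap between genotypes on both days.

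Prdx2, a cytosolic peroxiredoxin, was the 1 member past the threshold between genotypes on both days. At day 14 its log2 ratio was -0.69, -0.33 and -0.69 in IFNAR-/- arrays, against 1.45, 0.85 and 0.88 in wildtype arrays. At day 7 it was -1.09, -0.85 and -1.03 in IFNAR-/- arrays, against 0.19, 0.28 and 0.38 in wildtype arrays. No IFNAR-/- array of either day reached any wildtype array, and all 4 groups were separate from their neighbours in the ascending order IFNAR-/- day 7, IFNAR-/- day 14, wildtype day 7, wildtype day 14. The difference, IFNAR-/- minus wildtype, was -1.63 ± 0.16 (SE of the limma fit, n = 3 arrays per group) at day 14, a 3.09-fold lower level, and -1.27 ± 0.16 at day 7, 2.41-fold lower. In bulk RNA, fewer cells of a type and less RNA per cell cannot be told apart. As strain is not given, a strain-linked difference in how a probe set binds cannot be told apart from genotype either.

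The size of the Prdx2 difference depended on the probe set. On the second probe set IFNAR-/- arrays held -1.31, -0.74 and -1.26 at day 14, against 2.24, 1.47 and 1.33 in wildtype arrays, and -1.49, -1.21 and -1.51 at day 7, against 0.54, 0.48 and 0.71 in wildtype arrays. Its difference was -2.78 ± 0.23 (SE) at day 14 and -1.98 ± 0.23 at day 7. On the first probe set the arrays held -0.07, 0.07 and -0.11 in IFNAR-/- cells at day 14, against 0.65, 0.24 and 0.43 in wildtype cells, and -0.70, -0.49 and -0.54 at day 7, against -0.17, 0.08 and 0.05 in wildtype cells. There the difference was -0.48 ± 0.13 at day 14 and -0.56 ± 0.13 at day 7. Tested by itself among all probe sets, the second passed the threshold on both days and the first on neither. Both probe sets kept the genotypes apart on both days, but only the second placed every IFNAR-/- array below every wildtype array regardless of day. Red cell precursors are rich in Prdx2, and the erythroid list had 5 measured markers. Its median log2 ratio lay between 0.037 and 0.558 in IFNAR-/- day 14 arrays, -0.044 and -0.031 in wildtype day 14, -0.075 and 0.154 in IFNAR-/- day 7 and -0.25 and 0.019 in wildtype day 7 arrays. The list's median difference was 0.26 at day 14, with 0 of 5 markers past the threshold, and 0.18 at day 7, with 1 of 5 higher. The part of these cells in the Prdx2 result was not tested. At day 14 the haemoglobin gene Hba-a1 held -0.12, 0.56 and -0.07 in IFNAR-/- arrays, against -0.04, 0.05 and 0.23 in wildtype arrays. Klf1 and Slc4a1 overlapped between genotypes too. The markers Alas2 and Epor were higher in IFNAR-/- day 14 arrays without overlap. Alas2 held 0.21, 0.77 and 0.32, against -0.23, 0.00 and -0.04 in wildtype arrays, and reached 4.83 in IFNAR-/- day 7 mouse 3. Epor held 0.08, 0.12 and -0.11, against -0.41, -0.47 and -0.34 in wildtype arrays.

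**Figure D2:**
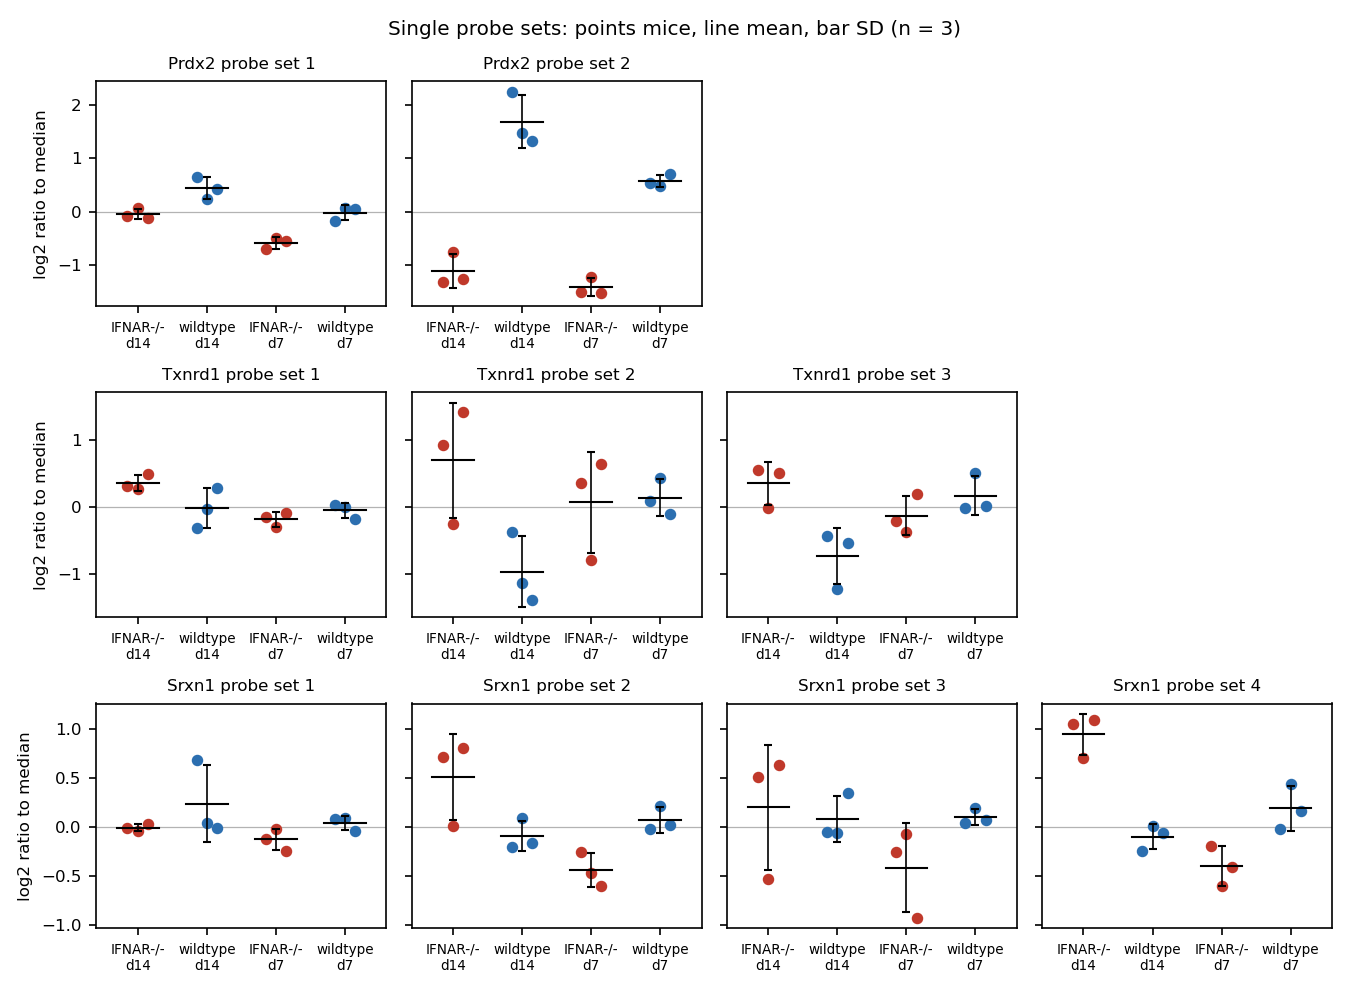
Log2 ratio of every probe set of Prdx2, Txnrd1 and Srxn1 by group, with 1 row of panels per gene on a shared axis; points are mice, lines are means and bars are SD (n = 3). The second Prdx2 probe set spreads from -1.51 to 2.24 and the first from -0.70 to 0.65, and the fourth Srxn1 probe set stands highest in IFNAR-/- day 14 arrays, between 0.71 and 1.09.

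Cdo1, the enzyme that commits cysteine to oxidation, was high in IFNAR-/- cells at day 7. At day 14 its log2 ratio was -0.12, 0.08 and -0.31 in IFNAR-/- arrays, against -0.89, -0.51 and -1.02 in wildtype arrays. At day 7 it was 3.35, 4.18 and 3.17 in IFNAR-/- arrays, against 1.01, 1.68 and -0.40 in wildtype arrays. The genotypes did not overlap on either day, and wildtype day 7 arrays varied widely among themselves (0.77 ± 1.06, SD, n = 3). IFNAR-/- minus wildtype was 0.69 ± 0.43 (SE) at day 14 and 2.80 ± 0.43, a 6.97-fold higher level, at day 7. Day 14 minus day 7 was -3.69 ± 0.43 in IFNAR-/- cells, 12.9-fold lower, and -1.58 ± 0.43 in wildtype cells, 2.98-fold lower. Cdo1 was measured by 1 probe set.

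Between genotypes, the median of alveolar macrophage markers lay in the same direction as Cdo1 on both days. Within groups the arrays did not line up this way. In wildtype day 7 arrays, mouse 3 had the highest marker median (0.711) and the lowest Cdo1 (-0.40). There mouse 2 had the lowest marker median (-0.094) and the highest Cdo1 (1.68). The median of 11 such markers was 0.051, -0.599 and -0.508 in IFNAR-/- day 14 arrays, against -0.466, -1.333 and -0.767 in wildtype day 14 arrays, and 0.867, 0.895 and 1.046 in IFNAR-/- day 7 arrays, against 0.193, -0.094 and 0.711 in wildtype day 7 arrays. Their median difference was 0.76 at day 14, with 2 of 11 past the threshold upward, and 0.57 at day 7 with 0 of 11. Some of the 11 went the other way, Car4 at day 7 and Mrc1 and Fabp5 at day 14 among them. At day 7 the median difference was also 0.61 for endothelial and 0.55 for neutrophil markers. The part of these cells in the Cdo1 result was not tested. Dendritic cell and monocyte markers went the other way at day 7, with 9 of 13 and 4 of 9 lower in IFNAR-/- cells past the threshold and median differences of -1.08 and -1.30. The genes whose pattern over the 12 arrays was most like that of Cdo1 were Klhl17 (Pearson r = 0.97), Med12l, Trim3, Agap1 and Glul, glutamine synthetase (each r = 0.94). The 12 points of each correlation share the 4 groups, and the 3 IFNAR-/- day 7 arrays stand far from the others for Cdo1.

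Slc7a11, the cystine importer, had higher means at day 14 than at day 7 in both genotypes, and passed the threshold over time in IFNAR-/- cells. In IFNAR-/- cells it held 0.98, 0.19 and 1.37 at day 14, against -0.21, -0.59 and -1.08 at day 7, without overlap. In wildtype cells it held -0.12, 0.91 and 1.19 at day 14, against -0.58, 0.13 and -0.85 at day 7, and mouse 1 of day 14 lay below mouse 2 of day 7. Day 14 minus day 7 was 1.48 ± 0.40 (SE) in IFNAR-/- cells and 1.10 ± 0.40 in wildtype cells. In IFNAR-/- cells the first probe set gave 2.03 ± 0.39 and passed by itself, and the second gave 0.93 ± 0.45 and did not. IFNAR-/- minus wildtype was 0.19 ± 0.40 at day 14 and -0.19 ± 0.40 at day 7, both smaller than their SE. The patterns most like that of Slc7a11 over the 12 arrays were those of Metap1 and Rai14 (r = 0.95), Pno1 (0.94), Pgam1 (0.93) and Ero1a, an oxidase of protein folding (0.91).

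Both subunits of glutamate-cysteine ligase kept to a narrow range. Gclc lay between -0.25 and 0.25 on all 12 arrays and Gclm between -0.46 and 0.20. IFNAR-/- minus wildtype for Gclc was -0.06 ± 0.14 (SE) at day 14 and -0.21 ± 0.14 at day 7. For Gclm it was -0.06 ± 0.16 at day 14 and -0.01 ± 0.16 at day 7. The arrays overlapped in every comparison for both subunits.

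Of the enzymes that keep thioredoxin and peroxiredoxins in their working state, Txnrd1 was higher in IFNAR-/- cells at day 14, and Srxn1 rose between day 7 and day 14 in IFNAR-/- cells. Txnrd1 held 0.60, 0.00 and 0.81 in IFNAR-/- day 14 arrays, against -0.37, -0.79 and -0.55 in wildtype day 14 arrays. At day 7 it held 0.00, -0.48 and 0.25 in IFNAR-/- arrays, against 0.04, 0.32 and -0.08 in wildtype arrays. The genotypes were separate at day 14 and overlapped at day 7, with differences of 1.04 ± 0.23 (SE), a 2.06-fold higher level, and -0.17 ± 0.23. The 3 probe sets gave 0.38 ± 0.15, 1.66 ± 0.45 and 1.08 ± 0.25 at day 14. Day 14 minus day 7 was 0.55 ± 0.23 in IFNAR-/- cells and -0.66 ± 0.23 in wildtype cells, opposite in sign, and neither passed the threshold. Among cell markers at day 14, 5 of 10 for T cells, 3 of 13 for dendritic cells, 2 of 9 for monocytes and interstitial macrophages and 2 of 11 for alveolar macrophages were higher in IFNAR-/- arrays, 1 of 12 for lung epithelium was lower, and their part in the Txnrd1 result was not tested.

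Srxn1 held 0.57, 0.04 and 0.64 in IFNAR-/- day 14 arrays, against 0.05, 0.02 and 0.03 in wildtype day 14 arrays. At day 7 it held -0.20, -0.29 and -0.54 in IFNAR-/- arrays, against 0.02, 0.24 and 0.05 in wildtype arrays. IFNAR-/- mouse 2 fell among the wildtype arrays at day 14, and at day 7 every IFNAR-/- array was below every wildtype array. The difference was 0.38 ± 0.15 (SE) at day 14 and -0.45 ± 0.15 at day 7, and day 14 minus day 7 was 0.76 ± 0.15 in IFNAR-/- cells and -0.07 ± 0.15 in wildtype cells. The fourth probe set showed the widest contrast, at 1.05, 0.71 and 1.09 in IFNAR-/- day 14 arrays, against -0.24, 0.01 and -0.06 in wildtype day 14 arrays. The first probe set stayed between -0.04 and 0.03 in IFNAR-/- day 14 arrays, so the probe sets of Srxn1 disagree.

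Nqo1 and Nfe2l2 did not separate the genotypes. Nqo1 lay between -0.42 and 0.39 on all arrays, and IFNAR-/- minus wildtype was -0.04 ± 0.17 (SE) at day 14 and 0.00 ± 0.17 at day 7. In wildtype cells it held 0.07, 0.32 and 0.02 at day 14, against -0.09, -0.34 and -0.04 at day 7, without overlap, a difference of 0.30 ± 0.17 that did not pass. Nfe2l2 lay between -0.34 and 0.30, with a difference of -0.14 ± 0.15 at day 14 and -0.31 ± 0.15 at day 7. Its probe sets disagreed, with IFNAR-/- minus wildtype at day 14 at 0.28 ± 0.17 on the first and -0.57 ± 0.25 on the second, and day 14 minus day 7 in wildtype cells at -0.77 ± 0.17 on the first and 0.52 ± 0.25 on the second. NRF2 is regulated largely through the stability of its protein, which arrays do not measure. The patterns most like that of Nqo1, a gene with a narrow range here, were Cyp24a1 and 4930442J19Rik (r = 0.93), Ccdc17 (0.92), Slc45a3 (0.91) and Zfp93 (0.90).

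**Figure D3:**
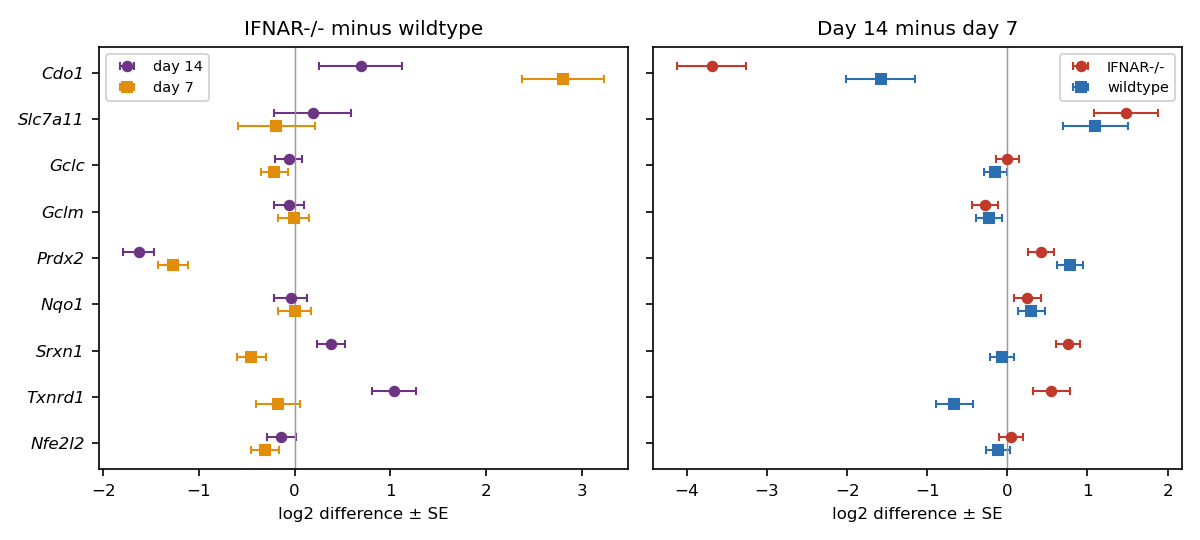
Log2 differences of the 9 genes with their SE from the limma fit (n = 3 arrays per group), IFNAR-/- minus wildtype on the left and day 14 minus day 7 on the right. Prdx2 lies below 0 between genotypes on both days, at -1.63 and -1.27, and Cdo1 has the widest difference over time in IFNAR-/- cells, at -3.69.

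In the fit over all 18193 genes, members past a limma adjusted p of 0.05 (Benjamini-Hochberg) numbered 2 of 9 between genotypes at day 14, Prdx2 and Txnrd1, where 5.04% of all genes passed. At day 7 they were Cdo1 and Prdx2, 2 of 9 against 2.64% of all genes. Between days in IFNAR-/- cells Cdo1, Slc7a11 and Srxn1 passed, 3 of 9 against 12.3%, and in wildtype cells Cdo1 and Prdx2 passed, 2 of 9 against 7.98%. Groups of arrays did not overlap for 3 of 9 members between genotypes on each day, against 23.4% of all genes at day 14 and 24% at day 7. Between days they did not overlap for 4 of 9 in IFNAR-/- cells, against 34% of all genes, and for 4 of 9 in wildtype cells, against 31.1%. The median difference of the 9 was -0.04 at day 14 and -0.19 at day 7, with 0.00 over all genes on both days. Of all genes 1.75% rose and 3.29% fell in IFNAR-/- cells at day 14, and 1.29% rose and 1.35% fell at day 7. Over time 4.08% rose and 8.25% fell in IFNAR-/- cells, and 3.88% rose and 4.1% fell in wildtype cells. Because these contrasts were in view when the list was made, nothing is read from the counts.

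For the change of the genotype difference, day 14 minus day 7, limma called 0 of 9 members, against 2.48% of all genes (1.14% upward and 1.34% downward). An unadjusted limma p under 0.05 was found for 3 of 9, against 3284 of all 18193 genes, and nothing is read from this count. These were Cdo1 at -2.11 ± 0.61 (SE), Txnrd1 at 1.21 ± 0.33 and Srxn1 at 0.83 ± 0.22. Without both IFNAR-/- arrays that stand apart, 2 of 9 were called, and the share of all genes called in that setting is not given here. The other 6 members lay between -0.36 and 0.38.

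The part of the control signals in the day 14 differences, and in the differences over time in wildtype cells, was not tested beyond the fits with them as covariates. As the mean of its probe sets, Prdx2 passed between genotypes on both days under each alternative tried, with these signals as covariates or without the arrays that stand apart among them, while its first probe set by itself passed on neither day. Txnrd1 at day 14 did not pass with the 5' over 3' signal as covariate, when only the arrays compared were fitted, or without IFNAR-/- mouse 1 or 3 or wildtype mouse 2 or 3. Its difference was 0.76 with that covariate and lay between 0.87 and 1.27 with 1 array left out, and of its 3 probe sets by themselves only the third passed. Cdo1 at day 7 passed whichever array was left out, with a difference between 2.22 and 3.26, and did not pass with a trended and robust prior or when only the arrays compared were fitted. Over time in wildtype cells, neither Cdo1 nor Prdx2 passed after a second quantile normalization or with either control signal as covariate, and neither passed without wildtype day 7 mouse 1 or 2. Cdo1 there also failed without each array of wildtype day 14 and without IFNAR-/- day 7 mouse 1 or IFNAR-/- day 14 mouse 1 or 3, and with a trended and robust prior, when only the arrays compared were fitted or with its probe set tested among all probe sets. Over time in IFNAR-/- cells, Slc7a11 did not pass without any 1 of the 3 day 7 arrays or without day 14 mouse 1 or 3, nor without both IFNAR-/- arrays that stand apart, with the 5' over 3' signal as covariate, with the mouse number as block or when only the arrays compared were fitted. Its difference lay between 1.21 and 1.81 with 1 array left out. Srxn1 in that comparison did not pass when only the arrays compared were fitted. Cdo1 over time in IFNAR-/- cells passed under each alternative, between -3.99 and -3.24.

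The rest of the pathway was followed through 114 measured genes in 7 lists that were put together by function. The lists were chosen with earlier results of these data known. Their counts, here and over time, are thus a description from which nothing is read, and the p values of their genes do not rest on an independent choice. At day 14, 6 of the 114 rose and 10 fell in IFNAR-/- cells, 14% against 5.04% of all genes. Their median difference was -0.03, and all genes had 0.00. At day 7, 3 rose and 3 fell, 5.26% against 2.64%, with a median of 0.04. The cell markers given beside Cdo1 and Txnrd1 differed between the same groups, and their part in these counts was not tested.

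**Figure D4:**
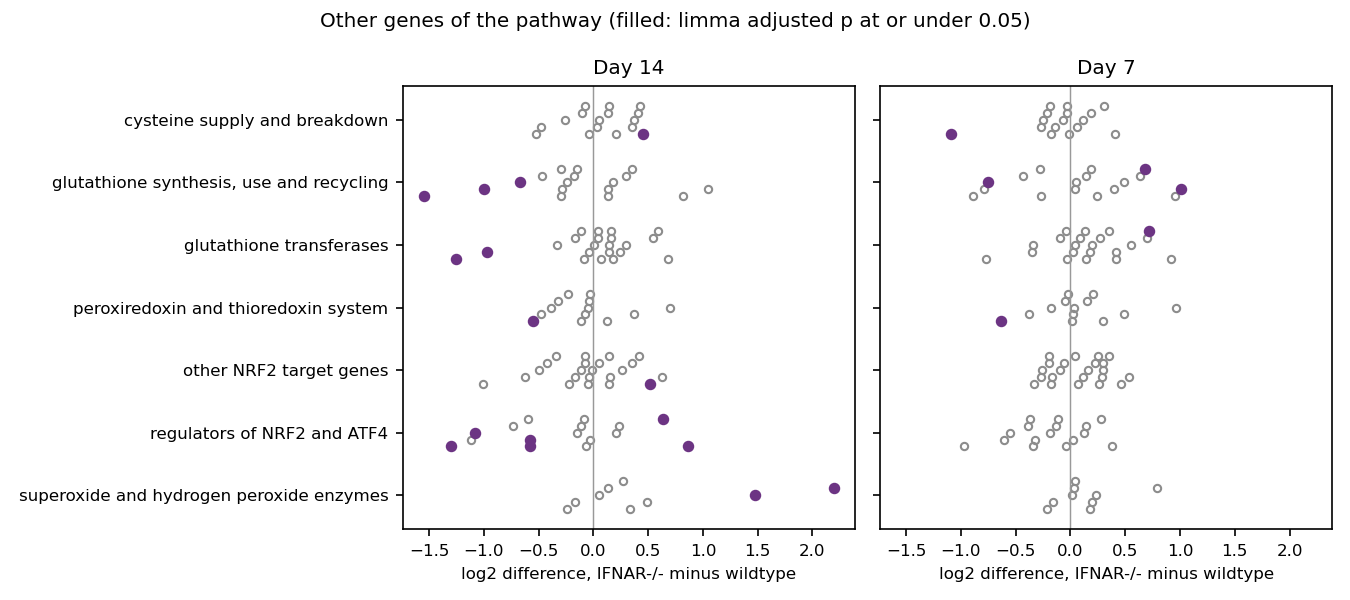
Log2 differences, IFNAR-/- minus wildtype, of the 114 other genes of the pathway at day 14 (left) and day 7 (right), with a row per list and a point per gene; filled points passed a limma adjusted p of 0.05. At day 14 Cybb (2.20) and Ncf1 (1.48) lie farthest right and Chac1 (-1.55) farthest left.

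Among the 16 regulators of NRF2 and ATF4, 2 rose and 4 fell in IFNAR-/- cells at day 14, with a median difference of -0.13. Atf4, the transcription factor of the amino acid and integrated stress response that also drives Slc7a11, fell by 0.58 ± 0.10 (SE; limma adjusted p 0.0126). It held -0.15, -0.34 and -0.29 in IFNAR-/- arrays, against 0.21, 0.31 and 0.44 in wildtype arrays. Its targets Trib3 and Ddit3 fell too, by 1.30 ± 0.26 (limma adjusted p 0.0201) and 0.58 ± 0.14 (0.0348), while Atf3, a stress-induced relative of ATF4, rose by 0.86 ± 0.18 (0.0252). The further genes of that count, Asns and Maff, fall outside the naming rule and were chosen after their values were seen, at -1.08 ± 0.28 and 0.64 ± 0.16. At day 7, limma called 0 of the 16 and 4 had an unadjusted p under 0.05, against 2502 of all 18193 genes. In wildtype cells Atf3 was at -0.37, -0.37 and -0.38 at day 14, against 0.75, 0.49 and 0.38 at day 7.

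Of 17 genes of glutathione synthesis, use and recycling, 3 fell and 0 rose in IFNAR-/- cells at day 14, with a median of -0.18. Chac1 and Chac2, which cleave glutathione, fell by 1.55 ± 0.23 (SE; limma adjusted p 0.00761) and 1.00 ± 0.25 (0.0448), and Hagh, a hydrolase of the glyoxalase system, fell by 0.67 ± 0.16 (0.0406). Chac1 held -0.45, 0.46 and 0.15 in IFNAR-/- day 14 arrays, against 1.32, 1.78 and 1.71 in wildtype day 14 arrays, and -0.77, -0.13 and -0.57 in IFNAR-/- day 7 arrays, against -0.13, 0.11 and -0.14 in wildtype day 7 arrays. Wildtype day 14 arrays thus stood above all others for this gene. At day 7, Glo1, the glyoxalase that uses glutathione, and Ggt5, which cleaves glutathione conjugates outside cells, rose by 1.01 ± 0.19 (0.0206) and 0.68 ± 0.12 (0.0128). Gsr, glutathione reductase, fell by 0.75 ± 0.18 (0.0496) at day 7, and the list's median was 0.14. Of 16 genes of cysteine supply and breakdown, Got2 rose by 0.45 ± 0.11 (0.0369) at day 14, and Got1, a transaminase that can act on cysteine sulfinate, the product of Cdo1, fell by 1.09 ± 0.18 (0.00841) at day 7. Got1 held -0.60, -1.06 and -1.13 in IFNAR-/- day 7 arrays, against 0.04, 0.20 and 0.23 in wildtype day 7 arrays.

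Among 21 glutathione transferases, Gsta2 and Gsto1 fell in IFNAR-/- cells at day 14, by 1.25 ± 0.19 (SE; limma adjusted p 0.00844) and 0.97 ± 0.16 (0.0104), and Gstp1 rose by 0.72 ± 0.12 (0.0116) at day 7. The list's medians were 0.07 and 0.14. Members of a transferase class are close in sequence, so signal of Gsta2 or Gstp1 may include near copies. Gsta2 stood at 0.01, -0.02 and -0.01 in IFNAR-/- day 14 arrays, against 0.79, 1.28 and 1.66 in wildtype day 14 arrays. Of 13 genes of the peroxiredoxin and thioredoxin system, Prdx3, the mitochondrial peroxiredoxin, fell by 0.55 ± 0.13 (0.0319) at day 14, and Prdx4, that of the endoplasmic reticulum, fell by 0.63 ± 0.15 (0.0457) at day 7. Of 22 other NRF2 target genes, Fth1, the ferritin heavy chain, rose by 0.52 ± 0.10 (0.0207) at day 14. At day 7, limma called 0 of the 22, and 2 had an unadjusted p under 0.05, against 2502 of all 18193 genes.

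Of 9 enzymes that make or remove superoxide and hydrogen peroxide, Cybb and Ncf1, subunits of the phagocyte NADPH oxidase, rose in IFNAR-/- cells at day 14. Cybb held 0.07, -0.73 and -0.22 in IFNAR-/- day 14 arrays, against -2.34, -2.27 and -2.85 in wildtype day 14 arrays, a difference of 2.20 ± 0.22 (SE; limma adjusted p 0.000995). Ncf1 held 0.24, -0.85 and -0.32 in IFNAR-/- day 14 arrays, against -1.86, -1.58 and -1.94 in wildtype day 14 arrays, a difference of 1.48 ± 0.25 (0.0104). For both genes the wildtype day 14 arrays were below all other arrays. At day 7 limma called 0 of the 9, and 1 had an unadjusted p under 0.05, against 2502 of all 18193 genes. Of the genes named here by the rule in the genotype comparisons, Atf4, Chac1, Gsta2, Gsto1, Cybb and Ncf1 at day 14 and Got1 at day 7 passed whichever 1 array was left out. Of these, Atf4 did not pass on any of its probe sets by itself, and neither Atf4 nor Gsto1 passed when only the arrays compared were fitted. Got1 did not pass without both IFNAR-/- arrays that stand apart and wildtype day 7 mouse 1. Trib3 did not pass without wildtype day 14 mouse 2, nor Gstp1 without IFNAR-/- day 7 mouse 2. Fth1 did not pass without IFNAR-/- day 14 mouse 1 or wildtype day 14 mouse 2, nor Ggt5 without IFNAR-/- day 7 mouse 2 or wildtype day 7 mouse 1. Atf3 and Glo1 passed in 7 of 12 such fits, Ddit3 and Prdx3 in 6, Got2, Hagh, Chac2 and Gsr in 3, and Prdx4 in 2. With the 5' over 3' signal as covariate only Cybb of the 114 passed at day 14, and at day 7, 1 of the 114 passed with the signal of the poly-A control transcripts, which are added to the RNA before labelling. The shares of all genes called with these covariates are not given here.

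Over time, 7 of the 114 rose and 17 fell in IFNAR-/- cells at day 14, 21.1% against 12.3% of all genes, and 7 rose and 11 fell in wildtype cells, 15.8% against 7.98%. In IFNAR-/- cells the transferases held 7 of the falls and 1 rise, with a median of -0.38, Gsto1 and Mgst3 at -0.97 ± 0.16 (SE; limma adjusted p 0.00447) and -0.79 ± 0.14 (0.00636) among them. Catalase, Cat, which breaks down hydrogen peroxide, fell by 1.67 ± 0.33 (0.00858). The NRF2 targets Taldo1, transaldolase, and Cbr1, a carbonyl reductase, fell by 0.86 ± 0.16 (0.00684) and 0.74 ± 0.15 (0.01). Oplah, the oxoprolinase of the glutathione cycle, fell by 1.00 ± 0.22 (0.0151), and Suox, sulfite oxidase, fell by 0.71 ± 0.21 (0.0465). Msra, which repairs oxidised methionine, fell by 0.68 ± 0.19 (0.0387), and Bach2, a transcriptional repressor, fell by 0.39 ± 0.11 (0.0377). Glrx, glutaredoxin, rose by 1.43 ± 0.25 (0.00523) and Got1 by 0.89 ± 0.18 (0.00879). Alveolar macrophage markers went the same way as these falls, with 4 of 11 lower and a median of -1.24. In the same comparison markers of dendritic cells (8 of 13, median 0.79), T cells (6 of 10, median 0.98) and monocytes and interstitial macrophages (4 of 9, median 1.04) rose. The part of these cells in the pathway counts and in the Slc7a11, Srxn1 and Cdo1 differences over time was not tested. Without both IFNAR-/- arrays that stand apart, 7 of the 114 were called instead of 24, and the share of all genes called in that setting is not given here.

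In wildtype cells Hmox1, haem oxygenase, rose by 1.16 ± 0.17 (SE; limma adjusted p 0.00384) at day 14. Chac1 rose by 1.66 ± 0.23 (0.00256), Gsta2 rose by 1.41 ± 0.19 (0.00245), and Slc1a5, a transporter of glutamine and other neutral amino acids, rose by 0.81 ± 0.17 (0.0184). Prdx3 and Hagh rose by 0.64 ± 0.13 (0.012) and 0.63 ± 0.16 (0.0382). Cybb and Ncf1 fell by 2.87 ± 0.22 (0.000202) and 1.97 ± 0.25 (0.0016). Epoxide hydrolase, Ephx1, fell by 1.34 ± 0.22 (0.00545), and Atf3 and the small Maf protein gene Maff fell by 0.92 ± 0.18 (0.0132) and 0.85 ± 0.16 (0.0105). The transferase Gstt3 and the sestrin Sesn3 fell by 0.75 ± 0.16 (0.0158) and 0.68 ± 0.16 (0.0265). Alveolar macrophage markers were lower here too, 6 of 11 with a median of -1.24, as were 3 of 13 dendritic cell and 2 of 9 monocyte and interstitial macrophage markers, while 1 dendritic cell marker was higher, and their part was not tested. Over time, leaving out 1 array ended the call in most such fits for Suox (passed in 3 of 12), Bach2 (4) and Msra (5) in IFNAR-/- cells and for Hagh (5) in wildtype cells. In place of 18 genes, 4 were called with the 5' over 3' signal as covariate and 9 with the poly-A signal. The shares of all genes called in these settings are not given here.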

How the data were processed

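RNA of bead-selected CD11c+ lung cells was hybridised to 12 Affymetrix arrays, 1 per mouse. Per the submitters' processing notes the authors used RMA, with no version given. The deposited values are ratios: each probe set's median over the 12 arrays lies within 0.02 of 1 for 100% of probe sets, so levels are not kept. Genes were named from the platform annotation: of 45101 probe sets, 34945 had 1 symbol, 932 had several and 9160 had none. Depth has no meaning for arrays, and their number limits the precision.

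Ratios were taken to log2, and the probe sets of a gene averaged, which gave 18193 genes. The limma 3.58.1 fit (R 4.3.3) had 1 mean per group, 8 residual degrees of freedom, a prior SD of 0.171 with 3.21 prior degrees of freedom, and Benjamini-Hochberg adjustment over all genes at 0.05, two-sided. It was tested on simulated data. Errors of differences are the moderated fit's SE; mice are the replicates, as the labels name them.

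The members and lists were chosen with earlier results of these data known. From the pathway lists the text names each gene past the threshold in a genotype comparison, or the 4 with the lowest p where a list has more, and up to 2 per list over time; likeness is Pearson's r over arrays. Alternatives were another normalization, centring, probe sets alone (a gene counted where any of its probe sets passes), another prior, array weights, the mouse number as block, a fit of the compared groups alone, leaving out each array or those that stand apart, control signals as covariates and a minimum of 2-fold. A planned comparison of the Prdx1 and Prdx2 proteins was not made.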

Additional observations from a re-analysis of the deposited data

Results flagged for a closer look

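For 5 genes of the pathway the difference between IFNAR-/- and wildtype cells itself changed between the days, by the interaction term of the limma fit (day 14 difference minus day 7 difference, ± SE, n = 3 arrays per group). Cybb, a subunit of the phagocyte NADPH oxidase, had a change of 2.40 ± 0.32 (limma adjusted p 0.00679). Glrx, glutaredoxin, had 1.72 ± 0.35 (limma adjusted p 0.0326), Atf3, a stress-induced transcription factor, had 1.47 ± 0.26 (0.0185), and the transaminase Got1 had 1.12 ± 0.25 (0.0436). Gsto1, a glutathione transferase, went the other way at -1.02 ± 0.23 (0.0472). These 5 genes are 4.39% of the 114 tested, against 2.48% of all genes. The lists were chosen with earlier results of these data known, so nothing is read from this share. Cybb passed whichever array was left out and Atf3 in 11 of 12 such fits, Glrx in 4 of 12, and Got1 and Gsto1 in 2 of 12 each. None of the 5 passed with the 5' over 3' signal as covariate. Cybb, Got1 and Gsto1 did not pass with a trended and robust prior. Atf3, Glrx, Got1 and Gsto1 did not pass with the poly-A signal as covariate. With the mouse number as block Glrx, Got1 and Gsto1 did not pass, nor did Got1 without both IFNAR-/- arrays that stand apart.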

How the results depend on the processing

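No difference of a called member or named pathway gene turned its sign under an alternative, with a gene taken at its probe set of lowest p where probe sets were tested alone. At day 7 between genotypes, members called were 1 with a trended and robust prior or only the arrays compared and 4 with array weights, in place of 2, and pathway genes were 18 with array weights, 3 with only the arrays compared, 3 without both IFNAR-/- arrays that stand apart and wildtype day 7 mouse 1, 1 with the poly-A signal and 2 at 2-fold or more, in place of 6. At day 14, 1 member was called with only the arrays compared or with the 5' over 3' signal, in place of 2, and pathway genes were 10 with the trended prior, 5 with only the arrays compared, 1 with the 5' over 3' signal and 6 at 2-fold or more, in place of 16. Over time in IFNAR-/- cells, members were 5 by single probe sets or with array weights and 1 with only the arrays compared, in place of 3, and pathway genes were 41 with weights, 14 with only the arrays compared, 7 without both IFNAR-/- arrays that stand apart, 8 without those and wildtype day 7 mouse 1 and 6 at 2-fold or more, in place of 24. Over time in wildtype cells, members were 0 after quantile normalization or with either control signal, 4 with weights and 1 with the trended prior, without those 3 arrays or at 2-fold or more, in place of 2, and pathway genes were 30 with weights, 4 with the 5' over 3' signal, 9 with the poly-A signal and 8 at 2-fold or more, in place of 18. For the change of the difference, members were 1 by single probe sets, 3 with weights and 2 without the IFNAR-/- arrays that stand apart, with or without wildtype day 7 mouse 1, in place of 0, and pathway genes were 2 with the trended prior, 12 with weights, 0 with the 5' over 3' signal and 1 with the poly-A signal, in place of 5. The setting without those 3 arrays was chosen after seeing the data, and a fit of only the arrays compared could not be made for the change of the difference. For no alternative, leaving out arrays and the mouse number as block included, is the share of all genes called given here. A changed count thus cannot be told apart from a change in calls over all genes, and nothing is read from it.

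Leaving out 1 array in turn gave 2 to 3 members and 1 to 9 pathway genes at day 7, 1 to 3 and 7 to 14 at day 14, 2 to 4 and 11 to 23 over time in IFNAR-/- cells, 0 to 3 and 12 to 23 over time in wildtype cells, and 0 to 2 and 1 to 6 for the change. The lowest pathway counts came without IFNAR-/- day 7 mouse 2 at day 7 (1) and for the change (1), without IFNAR-/- day 14 mouse 1 at day 14 (7) and without IFNAR-/- day 7 mouse 3 over time in IFNAR-/- cells (11). The cause of these shifts was not tested, beyond the smaller number of arrays.

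Mouse numbers recur in every group, and deviations of same-numbered mice correlated between -0.4 and 0.23. With so few arrays per group, these values cannot decide if same-numbered mice shared a batch. The main fit took the numbers only as names of mice. With the mouse number as a replicate block, members called were 2 at day 7, 2 at day 14, 2 over time in IFNAR-/- cells, 2 over time in wildtype cells and 1 for the change, and pathway genes were 4, 10, 19, 15 and 3.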
